A study of Mus musculus with 3 samples.

Results

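The BCL2 family decides whether the outer membrane of the mitochondrion is opened during apoptosis, and 10 of its genes were followed here in mouse C2C12 myoblasts: Bak1, Bax, Bok, Bad, Bid, Bcl2l11, Bcl2, Bcl2l1, Bcl2l2 and Mcl1. They were chosen by gene symbol, and every probe set that carries 1 of these symbols in the platform annotation was used. This gave 27 probe sets of 9 genes, out of 20380 named probe sets of 12393 genes in all. Array values of Bax were not analysed here. RNA was compared between untreated C2C12 cells, cells transfected with EGFP (a green fluorescent protein, the transfection control) and cells transfected with DGKzeta (a kinase that turns diacylglycerol into phosphatidic acid). All 3 samples carry the label 12 h, and cells were plated for 18 h and transfected by the FuGene lipid reagent. C2C12 is an established line, and neither selection of transfected cells nor their share is given in the sources used here. Each group had 1 array, so differences could not be checked against replicates and no p-value is printed.

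Members of the family fall into roles that oppose each other. Effectors (Bak1, Bax and, by a partly separate route, Bok) form pores in the mitochondrial outer membrane that release cytochrome c, which then joins Apaf1 to activate caspases. Pro-survival members (Bcl2, Bcl2l1, Bcl2l2 and Mcl1) hold effectors and their activators in check, and BH3-only members (Bad, Bid and Bcl2l11) bind to pro-survival members or effectors and tip the balance towards death. Much of this control acts on the proteins, by cleavage, phosphorylation and turnover, which an RNA array does not read.

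The promoters of these genes were set side by side first, since they bear on what the members share apart from their role. The RefSeq table used here lists 14 promoters for the 10 genes (assembly GRCm38.p6), and the 250 bases before each start were searched on both strands. The GC box, GGGCGG, a site known to bind Sp1-type factors, matched in 9 of the 14 promoters, from 8 of the 10 genes, while 32.7% of all 32851 promoters of that length held it. Members' promoters were also richer in G and C, with a median of 63.2% against 52.4% over all promoters. Bak1 and Bcl2l1 had no match, and Bcl2 had the most, with 7. The E-box letters CANNTG matched in 7 of the 14 promoters (66.2% of all), CCAAT in 3 (33.8% of all), and TATAAA and TGACGTCA in 0 (12.4% and 1.55% of all). The 30 bases around the GC box nearest the start are shown for the members that were measured on all 3 arrays and have 1 listed start and a match, with the box in capitals and each read 5′ to 3′ on the strand of its gene.
Mcl1: ctccggaaacgcCCGCCCctttcccctttt
Bcl2l2: tgcctcccagccCCGCCCctctctctggac
Bid: gggctatcacagGGGCGGggctcccgggcg
Bok: tgggcagagctgggctgcggctCCGCCCcc
They lie at chr3:95658689-95658718 (Mcl1, plus strand), chr14:54883310-54883339 (Bcl2l2, plus strand), chr6:120916840-120916869 (Bid, minus strand) and chr1:93685545-93685574 (Bok, plus strand). In Mcl1, Bcl2l2 and Bok the box reads CCGCCC on the gene's strand, and in Bid it reads GGGCGG. A match describes these letters and is not evidence of binding.

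Signals of the whole series set the scale for what follows. A probe set was taken as measured on an array where its signal was at least 107, the median of all values pooled, which is called the floor. Ratios were taken after raising lower values to that floor, and a ratio in which 1 array was under it is a bound, written "at least". Between 10059 (DGKzeta) and 10687 (EGFP) named probe sets were measured on an array, and the median signal was 111 on the untreated, 119 on the EGFP and 92.5 on the DGKzeta array. The transfected gene Dgkz was 12.8-fold and 18.0-fold higher in DGKzeta than in EGFP cells by its 2 named probe sets. Of 10 myoblast markers 6 were measured on all 3 arrays, among them Myf5, Des, Cdh15 and Chrna1, and the signal summed over all 10 was 4069 to 4387. Myod1, a defining myoblast factor, was under the floor on every array (35.1, 26.5 and 23.7), as was Pax7. Of 20 markers of leukocytes, epithelium and endothelium at most 1 was measured on an array, with a highest signal of 148, and summed signals over the 3 arrays were 199 to 299 for leukocytes, 186 to 259 for epithelium and 40.8 to 94.6 for endothelium. By their brightest probe sets the 6 measured myoblast markers split against EGFP, 3 above 0 and 3 below. Myf5, a myogenic factor, was higher in DGKzeta cells (1058, 1227 and 2036), at 0.73 relative to EGFP and 0.94 relative to untreated. Against EGFP Chrna1 was at 0.22 and Vcam1 at 0.19, but another Vcam1 probe set (222, 220 and 132) was at -0.73. Ncam1, a myoblast adhesion molecule, was lower in DGKzeta cells by its brightest probe set (428, 459 and 186), at -1.31 relative to EGFP, but at -0.25 by the other measured one, Des was at -0.96 and Cdh15 at -0.62. The part of these myoblast markers in the differences of the BCL2 family was not tested. The ratio of the 3′ to the 5′ control probe set was 1.27, 1.43 and 2.55 for Actb and 0.841, 0.902 and 0.931 for Gapdh in untreated, EGFP and DGKzeta cells. The part of this end ratio in the differences given for DGKzeta cells was not tested.

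Among the BCL2 family genes Bak1 alone was 2-fold apart between DGKzeta and EGFP cells. Mcl1 was higher in DGKzeta cells by 4 of its 6 probe sets, all short of 2-fold. Of the 27 probe sets, 16 reached the floor on at least 1 array and 14, from 7 genes, on all 3. By the rule of at least 2-fold, 1 of 27 probe sets was lower in DGKzeta than in EGFP cells, where 2.28% of all named probe sets were, and 0 of 27 were higher, where 0.265% were. Against untreated cells 0 of 27 were higher and 0 of 27 lower, beside 0.976% and 2.77% of all. Between EGFP and untreated cells 0 of 27 differed in either direction, beside 0.24% higher and 0.422% lower. Read by the brightest probe set of a gene, 1 of 9 genes (Bak1) was at least 2-fold lower than in EGFP cells, beside 1.59% of all 12393 genes lower and 0.194% higher, and 0 of 9 differed so from untreated cells, beside 0.742% higher and 1.55% lower. The 8 measured genes had a median log2 ratio of -0.06 relative to EGFP and -0.03 relative to untreated, beside -0.02 and -0.02 over all measured genes.

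**Figure D1:**
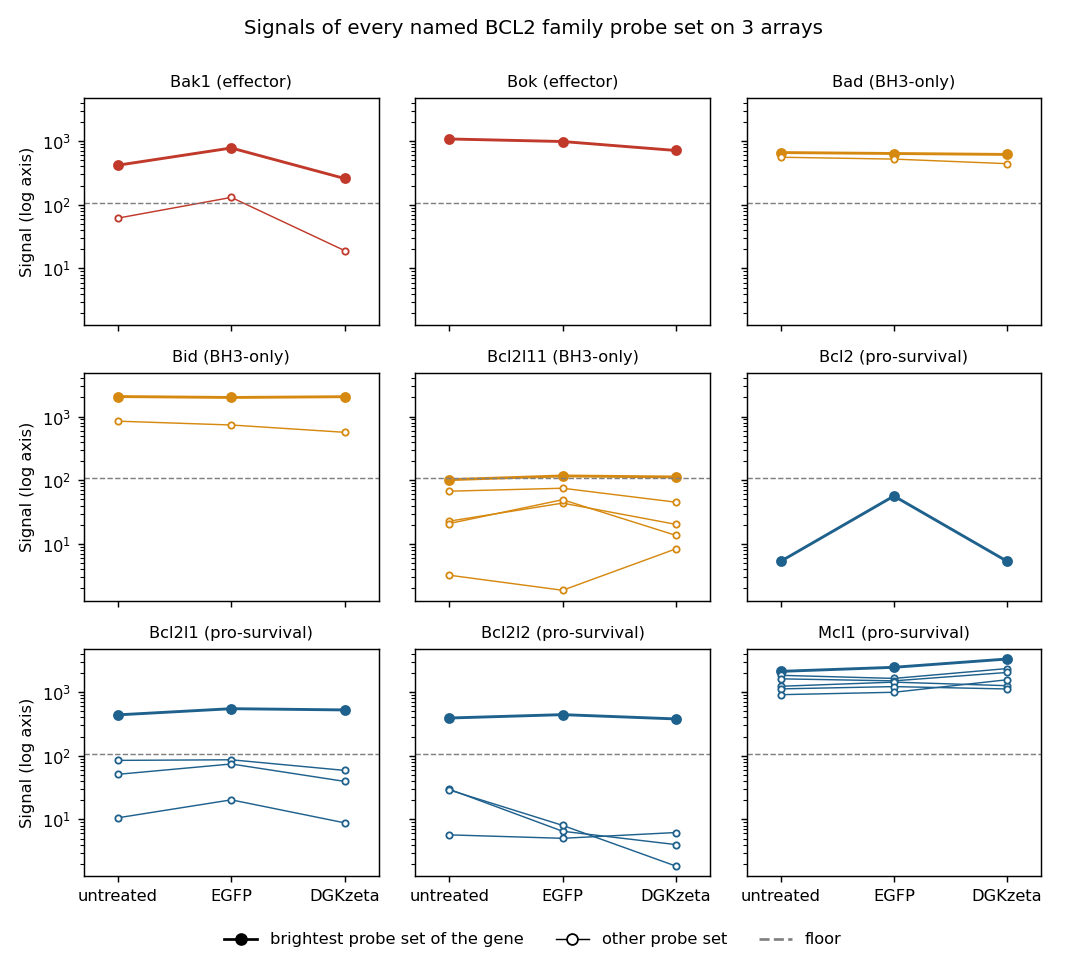
Signal of each named probe set (log axis) on the untreated, EGFP and DGKzeta arrays, 1 panel a gene. Filled points mark the brightest probe set of a gene, open points the others, and the dashed line the floor of 107. Both Bak1 probe sets peak in EGFP cells and have their lowest signal in DGKzeta cells. For the dimmer Bak1 probe set only the EGFP value is above the floor. Bcl2 lies under the floor on all 3 arrays.

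Bak1, which encodes the resident pore-forming effector of the mitochondrial outer membrane, was the member with the largest differences. Its brighter probe set (1418991_at) gave 418 on the untreated, 779 on the EGFP and 259 on the DGKzeta array. The EGFP array was the high one and the DGKzeta array the low one. Bak1 was thus 3.01-fold lower in DGKzeta than in EGFP cells (log2 ratio -1.59), 1.62-fold lower than in untreated cells (-0.69), and 1.86-fold higher in EGFP than in untreated cells (0.90). Among the 9880 named probe sets measured in both EGFP and DGKzeta cells, it ranked 62 from the lowest ratio. Among the 10258 measured in both EGFP and untreated cells, it ranked 64 from the highest. These ratios share the EGFP array, so a high value on that array enters both. Against untreated cells, where EGFP does not enter, Bak1 ranked 896 from the lowest of 9751 probe sets and lay inside the central range of all probe sets (5th to 95th percentile, -0.92 to 0.70).

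The other Bak1 probe set (1425716_s_at) gave the same order at low signal, with 61.7 in untreated, 130.4 in EGFP and 19.0 in DGKzeta cells. Only the EGFP value was above the floor. It was therefore at least 1.22-fold lower in DGKzeta than in EGFP cells, and no ratio to untreated cells could be taken. How far probe sets of 1 gene part from each other was taken from the 2 brightest of 2245 genes, where all 3 arrays measured both. As log2 ratios, single probe sets had an SD of 0.27 between EGFP and untreated, 0.40 between DGKzeta and EGFP and 0.50 between DGKzeta and untreated. It tells of disagreement among probes within 1 extract and says nothing of how cultures vary. The Bak1 ratios of -1.59 against EGFP and of 0.90 between both controls were several times this SD, whereas -0.69 against untreated was closer to it. Under 3 other scalings of the arrays the brighter probe set lay between -1.49 and -1.23 against EGFP, between -0.60 and -0.43 against untreated, and between 0.80 and 0.92 for EGFP against untreated.

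Bok, an effector related to Bak1 that can act without the other effectors, had 1 probe set. Its signal was 1079 with no transfection, 984 with EGFP and 711 with DGKzeta. DGKzeta cells had the lowest signal, by log2 ratios of -0.47 (EGFP) and -0.60 (untreated), both inside the central range of all probe sets and short of 2-fold. EGFP and untreated cells lay close to each other, at -0.13. Once medians of named probe sets were made equal, which moves the median of all probe sets measured on all 3 arrays from -0.03 to 0.34 against EGFP and from -0.03 to 0.23 against untreated, Bok stood at -0.10 and -0.34.

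BH3-only members were near their control levels by their brightest probe sets, while the dimmer Bid probe set was lower in DGKzeta cells. Bid, which caspase-8 cleaves to link death receptors to the mitochondrion, gave 2062, 1994 and 2050.1 by its brighter probe set in untreated, EGFP and DGKzeta cells, which is 0.04 (log2) relative to EGFP. Its dimmer probe set gave 846, 737 and 566, which is -0.38 relative to EGFP and -0.58 relative to untreated. The probe sets of Bid thus parted by 0.42 and 0.57 in these comparisons, which is about the size of the difference itself. Bad, which binds Bcl2l1 and Bcl2 when it is not phosphorylated, had 660.1, 638 and 617 by the brighter probe set and 557, 521 and 442 by the other. Its log2 ratios against EGFP were -0.05 and -0.24, and those against untreated -0.10 and -0.34. The signs of Bad against EGFP rested on the scaling, since equal medians of named probe sets put it at 0.31 and 0.13. The same scaling put Bid at 0.40 and -0.02, and quantile normalization put its brighter probe set at -0.02. Both probe sets of Bad and of Bid were slightly lower in EGFP than in untreated cells as well, between -0.20 and -0.05. Bcl2l11, which encodes Bim, an activator of effectors, had 5 probe sets of which 1 reached the floor. It gave 102 (under the floor), 117 and 112 in the same order of arrays, -0.05 relative to EGFP. That sign rested on the scaling, since floored values put it between 0.05 and 0.29 under 3 other scalings. The other 4 probe sets stayed between 1.87 and 74.8.

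Pro-survival members gave no common direction against EGFP. Of their 8 probe sets measured on all 3 arrays 4 had ratios above 0 and 4 below, with a median of 0.18, while both effector probe sets were below 0 and the BH3-only ones were below 0 in 3 of 4. All 4 values above 0 came from Mcl1. Against untreated cells 6 of the 8 were above 0, with a median of 0.29, and both effector and all 4 BH3-only probe sets were below 0. All of these 6 except that of Bcl2l1 came from Mcl1. These groups hold 3, 2 and 2 genes, both comparisons share the DGKzeta array, and the probe sets of a gene are not independent. Among all named probe sets measured on all 3 arrays 52.9% were below 0 in either comparison. The counts move with the scaling: equal medians of named probe sets put 8 of 8 pro-survival and 3 of 4 BH3-only probe sets above 0 against EGFP, and both effector probe sets below. Against untreated that scaling put 8 of 8 pro-survival and 2 of 4 BH3-only probe sets above 0, and both effector probe sets below. Quantile normalization put 5 of 8 pro-survival probe sets above 0 against EGFP and 7 of 8 against untreated.

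Mcl1, a short-lived pro-survival protein that holds Bak1 and Bim, had 6 probe sets, all far above the floor, and they split. The brightest (1448503_at) gave 2112 on the untreated, 2447 on the EGFP and 3304 on the DGKzeta array, which is 0.43 (log2) relative to EGFP and 0.65 relative to untreated. A further 3, all of suffix _x_at, had 1831, 1637 and 2338, then 1612, 1499 and 2030.1, and then 909, 992 and 1560.4. For these 4 probe sets the DGKzeta array was the highest, by log2 ratios of 0.43 to 0.65 against EGFP and 0.33 to 0.78 against untreated. Only the dimmest of the 4, at 0.65 and 0.78, lay above the central range of all probe sets. That range ended at 0.56 against EGFP and 0.70 against untreated. The SD of single probe sets was 0.40 and 0.50 in these comparisons, about the size of most of these ratios. The remaining 2 had 1232, 1431 and 1258 (1416880_at) and 1121, 1218 and 1117 (1416881_at). In these the DGKzeta value was slightly under that of EGFP, at -0.19 and -0.12, and within 0.03 of untreated. The 6 probe sets spanned 0.84 on the log2 scale against EGFP, more than any other member measured by several probe sets. The suffix _x_at marks sets in which some probes can match other transcripts. Of the sets without it, the brightest was higher in DGKzeta cells, while 1416880_at and 1416881_at were slightly under EGFP. The part of such matches in this split was not tested. Under 3 other scalings the 4 higher probe sets lay between 0.35 and 1.02 against EGFP, whereas the other 2 turned to 0.18 and 0.24 once medians of named probe sets were made equal.

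Mcl1 and Bak1 parted in DGKzeta cells by every Mcl1 probe set, in a measure that a common scaling factor does not touch. Its direction was fixed by Bak1, which had the lowest ratio of the 14 measured member probe sets in both DGKzeta comparisons. Between EGFP and untreated cells Bak1 had the highest ratio. Every other measured member therefore parted from Bak1 in the same directions, and the sign is not particular to Mcl1. This pair was chosen after its values were seen. The log2 ratio of Mcl1 minus that of the brighter Bak1 probe set was 1.40 to 2.24 against EGFP and 0.69 to 1.47 against untreated. Between EGFP and untreated cells it was -1.06 to -0.68, so that the pair lay apart in the opposite direction there. It compares ratios, not the amounts of both RNAs, and the proteins were not measured.

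**Figure D2:**
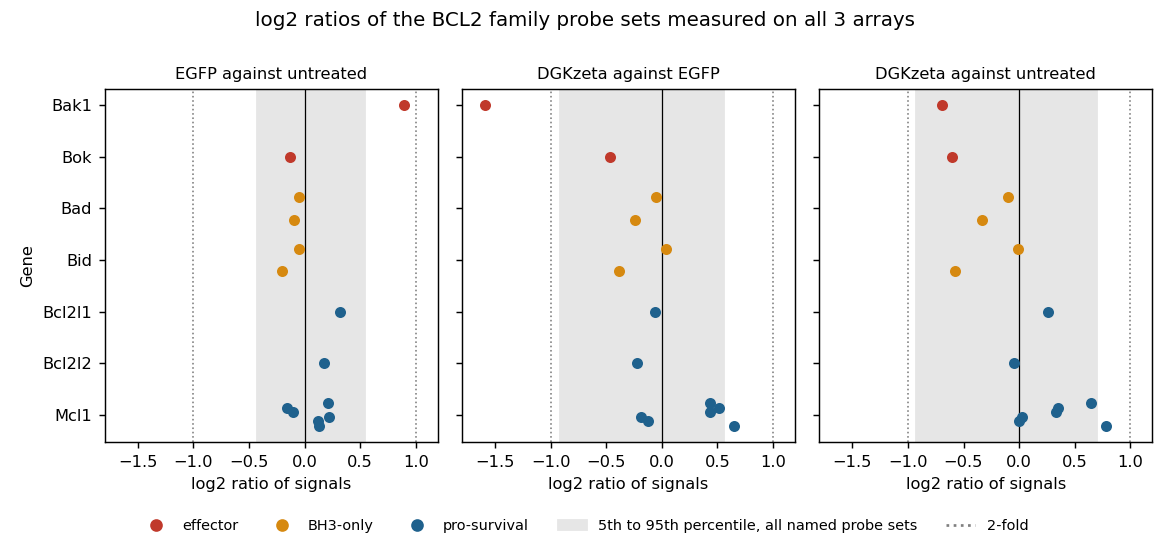
log2 ratios (x axis) of the 14 BCL2 family probe sets measured on all 3 arrays, by gene, in the 3 comparisons. Colours mark roles, the grey band is the 5th to 95th percentile of all 9688 named probe sets measured on all 3 arrays, and dotted lines mark 2-fold. Bak1 lies beyond the band between EGFP and untreated (0.90) and between DGKzeta and EGFP (-1.59), and Mcl1 probe sets spread on both sides of 0 against EGFP.

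Bcl2l1, which encodes Bcl-xL, had 1 measured probe set of 4, which gave 438, 548 and 524 in untreated, EGFP and DGKzeta cells. Untreated cells had the lowest signal and both transfected cultures lay close to each other. DGKzeta cells were at -0.06 relative to EGFP and 0.26 relative to untreated, and EGFP cells at 0.32 relative to untreated. The other 3 probe sets, of which 2 carry other accessions, stayed between 8.83 and 86.3. Bcl2l2, which encodes Bcl-w, had 391, 442 and 378 by the 1 measured probe set of 4, which is -0.22 relative to EGFP and -0.05 relative to untreated. Its other 3 probe sets stayed between 1.85 and 29.7. The direction against EGFP rested on the scaling for both genes, which turned to 0.30 and 0.14 once medians of named probe sets were made equal. Bcl2, the founding member of the family, was under the floor on all 3 arrays, at 5.32 in untreated, 56.5 in EGFP and 5.32 in DGKzeta cells, so no ratio was taken. In bulk RNA such as this, fewer cells that express a gene and less RNA per cell cannot be told apart.

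The wider apoptosis pathway was read by lists of genes, each gene by its brightest probe set. Inhibitors of apoptosis, which block caspases, held the 1 pathway gene that was at least 2-fold apart by its brightest probe set, Birc6, a large ubiquitin ligase of this class. It gave 754, 990 and 1754 in untreated, EGFP and DGKzeta cells, so that DGKzeta cells were 2.33-fold above untreated and at 0.83 (log2) relative to EGFP. Measured against untreated cells were 4 inhibitor, 4 death receptor, 7 caspase and 16 outer membrane or cytochrome c release genes. So were 14 binding partner and 5 other BCL2 family genes. Over the whole series that comparison put 92 genes 2-fold up and 192 down, out of 6866 measured. These are 0.742% and 1.55% of the 12393 named genes. Another Birc6 probe set had 109, 121 and 13.7, the last under the floor. Of the 4 measured inhibitors Birc5 was at 0.19, Xiap at 0.06 and Birc2 at -0.26 against EGFP, and the list had a median of 0.13. Another Xiap probe set, measured on all 3 arrays, gave 279, 170 and 117, which is -0.55 relative to EGFP and -1.26 relative to untreated. The brightest Xiap probe set was at -0.07 relative to untreated, so these Xiap probe sets part by more than 2-fold in that comparison.

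Death receptor genes were the list with the lowest median against EGFP among the apoptosis lists, at -0.55 over 4 measured members of 9, all 4 below 0. Tnfrsf1a, the main receptor for tumour necrosis factor, gave 1026, 1183 and 712, which is -0.73 relative to EGFP. Traf2, an adaptor of that receptor, was at -0.69, Fadd, which recruits caspase-8, at -0.40, and Tradd at -0.21, with -0.55 by its other probe set. Against untreated cells the median was -0.35, again with all 4 below 0, by the same DGKzeta array. When medians of named probe sets were made equal, 3 of 4 stayed below 0 against EGFP and 2 of 4 against untreated, and none of the 4 was 2-fold apart as deposited. Fas and its ligand were under the floor on all 3 arrays.

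Genes of the outer membrane channel and of cytochrome c release were all 16 measured, with 11 above 0 against EGFP and a median of 0.12. The highest were Mff, a receptor for mitochondrial fission, at 0.53, Apaf1, the scaffold of the apoptosome, at 0.45, and Dnm1l, the fission GTPase, at 0.45. Ppif, the cyclophilin of the permeability pore, was lowest at -0.44. The voltage-dependent channels Vdac1, Vdac2 and Vdac3 were at 0.03, -0.04 and 0.42, and Cycs, cytochrome c itself, at 0.28. Another Vdac1 probe set gave 3965, 3351 and 2047, which is -0.71 relative to EGFP. Another Mff probe set had 54.8, 102 and 231, at least 2.16-fold higher in DGKzeta cells than in either control, and a dimmer Dnm1l probe set was at -0.25. Endog and Opa1, at 0.42 and 0.19 by the brightest probe set, were at -0.46 and -0.39 by a dimmer one. In the other direction, a dimmer Ppif probe set was at 0.18, and those of Slc25a5 (-0.12 by its brightest) reached from -0.19 to 0.52. Between 10 and 15 of the 16 were above 0 under the other scalings. Against untreated cells 10 of 16 were above 0, with a median of 0.15 and Mff at 0.73.

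Caspases and their substrates had 7 measured members of 12 and a median of -0.12 against EGFP and -0.04 against untreated. Casp2 was at -0.40, Dffa, the inhibitor of the apoptotic nuclease, at -0.37, Cflar, a decoy of caspase-8, at 0.22 and Casp9, the caspase of the apoptosome, at -0.18. A dimmer Cflar probe set gave 405, 161 and 65.5, which is -1.33 for EGFP against untreated. In DGKzeta cells it was at least 3.78-fold lower than in untreated and at least 1.51-fold lower than in EGFP cells. A further Cflar probe set (135, 137 and 114) was at -0.27 against EGFP. The median against EGFP turned to 0.06 under quantile normalization. Binding partners of BCL2 proteins had a median of -0.06 over 15 measured members, with Bag6 at -0.50 and Tmbim6, an inhibitor of Bax-driven death, at -0.34, and of 0.08 against untreated, where Becn1, the autophagy protein that Bcl2 binds, was at 0.56, while its next probe set (902, 945 and 837) stood at -0.11. Among the other BCL2 family genes 5 of 13 were measured, with medians of 0.07 and -0.05. Bnip3, a mitochondrial death and mitophagy protein, was at 0.42 against EGFP and Bnip1 at -0.70 against untreated, while Bbc3, which encodes the p53 target Puma, gave 124, 114 and 119, which is 0.07 relative to EGFP. Pmaip1, which encodes Noxa, was under the floor at 35.1, 41.2 and 52.3, and so were Bmf, Bik and Hrk.

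**Figure D3:**
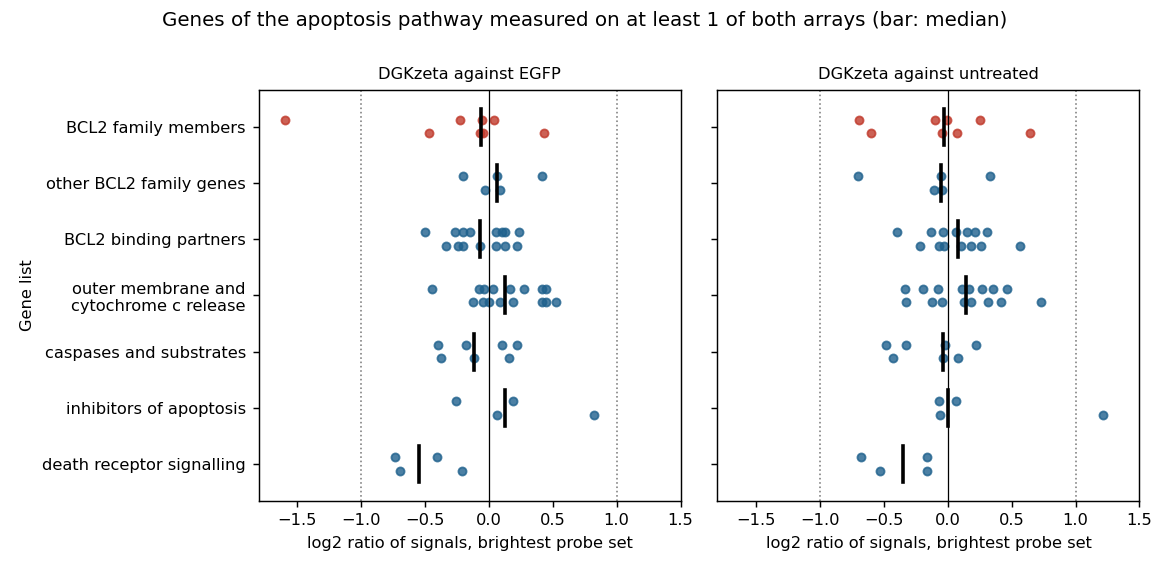
log2 ratios (x axis) of apoptosis pathway genes by list, each point 1 gene by its brightest probe set, measured on at least 1 of both arrays, for DGKzeta against EGFP (left) and untreated (right). Black bars are list medians and dotted lines mark 2-fold. Bak1 at -1.59 against EGFP and Birc6 at 1.22 against untreated are the points beyond 2-fold.

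Between EGFP and untreated cells the members other than Bak1 spanned a smaller range of ratios than in either comparison of DGKzeta cells. So did all named probe sets measured on all 3 arrays, with a 5th to 95th percentile of -0.43 to 0.54. That range was -0.91 to 0.56 for DGKzeta against EGFP and -0.92 to 0.70 for DGKzeta against untreated. Besides Bak1 at 0.90, the measured member probe sets lay between -0.20 (Bid) and 0.32 (Bcl2l1), and 7 of 14 were above 0. The median of the 8 measured genes was 0.15, beside 0.02 over all genes. Of the lists, BCL2 binding partners had a median of 0.13, death receptors 0.13, inhibitors of apoptosis 0.03, outer membrane genes -0.02, caspases -0.03 and other BCL2 family genes -0.12, and no gene of these or of the members was 2-fold apart by its brightest probe set, beside 0.202% of all genes higher and 0.169% lower.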

How the data were processed

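RNA from 3 samples was hybridised to 1 array each, labelled with biotin by a one-cycle protocol per the labels' protocols. The deposited table holds linear intensities, 1 for each probe set, and the submitters' processing notes name MAS5 for them. The version, target and detection call of MAS5 were not given in the sources used here. Each array's values had been scaled to a mean of 500 (499.9 or 500.0) between its 2nd and 98th percentile, and the intensities were used as deposited. The number of arrays limits the precision.

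Of 22690 probe sets, 64 are controls, 20380 have 1 gene symbol in the platform annotation, 691 several and 1555 none; the last 2 groups were not named. Gene IDs were matched to symbols of RefSeq (GRCm38.p6, found for 20351 probe sets, 0 changed). Values under the floor (50th percentile pooled) were raised to it before log2. All members were named with every probe set; other genes were named when 2-fold apart or among the 4 with the largest ratios of their list, with further list members for context. The members and lists were chosen with earlier results of these data known. With 1 array a group no test was run. The counting was tested on simulated data. Alternatives covered scaling, floor, pseudocount, fold rule, suffix and gene summary. Python 3.11.15, numpy 2.4.6, pandas 2.3.3 and matplotlib 3.10.9 were used.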

Additional observations from a re-analysis of the deposited data

How the results depend on the processing

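Quantile normalization, the 3-fold rule and dropping the suffixes _x_at and _s_at left the counts of 2-fold probe sets as they were. Quantile normalization turned the family medians against EGFP to 0.014 and against untreated to 0.050, and put that between EGFP and untreated at 0.076. With medians of all named probe sets made equal, 1 of 27 probe sets was 2-fold higher against EGFP and 1 against untreated (1.6% and 2.4% of all named probe sets), and the family medians were 0.29 against EGFP, 0.24 against untreated and 0.038 between EGFP and untreated. With equal medians over measured probe sets the median against EGFP was 0.045. A floor at the 25th percentile gave 3 probe sets higher in EGFP than in untreated cells, 5 lower in DGKzeta than in EGFP cells and 1 lower than in untreated cells, beside 3.17%, 7.23% and 7.07% of all. A floor at the 75th percentile left 0 lower against EGFP, since the Bak1 value in DGKzeta cells is then a bound, and put the median between EGFP and untreated at -0.048 over 5 genes. No floor gave 3 higher and 2 lower between EGFP and untreated, 1 higher and 7 lower against EGFP, and 1 higher and 3 lower against untreated, beside 11%, 9.53%, 8.54%, 15.7%, 10.1% and 15.0% of all. The pseudocount gave 3 and 2, 1 and 5, and 0 and 3, beside 7.68%, 7.05%, 6.07%, 12.1%, 7.67% and 11.8%. The 1.5-fold rule gave 1 higher between EGFP and untreated, 1 higher against EGFP, and 2 higher and 2 lower against untreated, beside 2.4%, 2.28%, 4.22% and 7.54% of all named probe sets. Second-brightest probe sets put the medians at -0.13, -0.26 and -0.34 (EGFP against untreated, DGKzeta against EGFP and against untreated), over 4, 4 and 3 genes, and the mean over probe sets put the last at -0.13. Of the probe sets counted without a floor, only Bak1 against EGFP was at or above the floor on both arrays compared, and the signals of the others limit what can be read. No paired analysis was possible because each group has 1 array.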

Other observations

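The order of signals over the arrays was also read for member probe sets that never reached the floor. Of these 11, which belong to Bcl2, Bcl2l1, Bcl2l2 and Bcl2l11, 9 had their lowest signal in DGKzeta cells and 7 their highest in EGFP cells. Over all 9310 named probe sets under the floor on all 3 arrays the shares were 40.1% lowest in DGKzeta and 39.3% highest in EGFP cells. Without the floor the 11 had a median log2 ratio of -0.91 against EGFP and the 9310 of -0.21. Several of the 11 read the same gene, and signals under the floor carry no measured level.

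Among the 14 member probe sets measured on all 3 arrays the DGKzeta array held the lowest signal in 7, the untreated array in 4 and the EGFP array in 3, where the DGKzeta array held the lowest in 43.0% of all 9688 such probe sets.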
